A study of Mus musculus with 10 samples.

Results

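The citrate cycle enzymes examined here are 9 genes, Cs, Idh1, Idh2, Idh3a, Ogdh, Suclg1, Fh1, Mdh1 and Mdh2, taken by symbol from the 16697 gene entries of an RNA-Seq table of mouse liver. They were picked by name, with earlier results of these data known. All 9 were in the table and passed the filter on low values, which asked for 1 FPKM or more in 3 or more libraries and kept 14017 genes. The 10 libraries came from normal liver of WT mice (NL, n = 4), from liver tumors of WT mice injected with c-MYC and an empty vector (c-MYC, n = 3) and from liver tumors of WT mice injected with c-MYC and FOXO1AAA, a constitutively active FOXO1 (c-MYC/FOXO1AAA, n = 3). Both transgenes were carried on plasmids with the EF1α promoter and delivered to hepatocytes by hydrodynamic tail vein injection, so the tumors were tissue of injected livers and the normal livers had no injection stated. Age was not given, the labels name C57BL/6 while the methods and protocol text name FVB mice, and the sources differ on whether MCL1 was also injected into the c-MYC controls. If strain or age differed between the groups, they cannot be told apart from the group. The comparisons ask how c-MYC tumors differ from liver in these enzymes, and how active FOXO1 changes them on top of c-MYC.

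The citrate cycle oxidizes acetyl-CoA in the mitochondrial matrix, passing electrons to NADH and FADH2 and supplying carbon for fat, glucose and amino acids. Several of its steps also have cytosolic isozymes, which use citrate, isocitrate and malate outside the mitochondrion to make NADPH and to shuttle reducing equivalents. In liver the cycle also feeds gluconeogenesis and takes up carbon from amino acids.

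Active FOXO1 was visible at the level of its own gene. Foxo1 stood at 95.64, 83.63 and 70.08 FPKM in the c-MYC/FOXO1AAA tumors, against 5.264, 6.464 and 5.172 in c-MYC tumors and 6.686 to 7.874 in NL. FPKM are fragments scaled to gene length and library size. Mouse Myc was at 0.561, 0.6986 and 1.054 FPKM in c-MYC tumors and at 4.17 to 22.24 in NL. Whether the injected c-MYC is counted under that symbol is not given in the sources used here, so Myc does not check the labels. The libraries held between 13.12 and 20.55 M reads recovered from the values, and each enzyme had at least 456 reads in every library.

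The libraries also differed in the levels of cell type markers. The summed FPKM of 8 hepatocyte markers was 83250 to 93770 in NL, 3612 to 5566 in c-MYC tumors and 902.3 to 1602 in c-MYC/FOXO1AAA tumors. Of these 8, 7 were lower in c-MYC tumors than in NL, and all 8 were lower in c-MYC/FOXO1AAA tumors than in NL. The shares of all genes lower were 23.6% and 26.6%. With FOXO1AAA against c-MYC alone, 5 were lower and 2 higher, where 12.7% and 15.9% of all genes were. Skeletal muscle markers (5 of 6 in the table) summed to 241.5 to 326.1 FPKM in c-MYC/FOXO1AAA tumors and to at most 5.91 elsewhere, and Acta1, Myh1, Myh4 and Tnnt3 had no more than 3 reads in any NL library. Stellate cell and fibroblast markers (6) summed to 79.01 to 100.2 FPKM in NL, 13.82 to 42.69 in c-MYC and 322.2 to 397 in c-MYC/FOXO1AAA tumors, and proliferation markers (4) to 2.778 to 16.75, 223.4 to 257.5 and 160.4 to 185.5. Of the 6 stellate cell and fibroblast markers, 1 was higher and 2 lower in c-MYC tumors than in NL. The part of the cells of all these marker lists in the enzyme results was not tested. In bulk tissue, fewer cells of a type and less RNA per cell cannot be told apart.

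The values also depend on how libraries are scaled. The factors in the deposited values were 0.649 to 0.684 in NL, 1.256 to 1.295 in c-MYC and 1.454 to 1.502 in c-MYC/FOXO1AAA tumors. Setting every library to the same FPKM total moves the median log2 fold change of all tested genes from 0.08 to 1.01 in c-MYC tumors over NL, from 0.03 to 0.20 in c-MYC/FOXO1AAA over c-MYC tumors and from 0.21 to 1.31 in c-MYC/FOXO1AAA tumors over NL. Directions that turn with scaling are given with each gene.

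Of the 9 enzymes, Idh2 and Idh3a were higher in c-MYC tumors than in NL, and Idh1, Fh1 and Mdh1 were lower, the Fh1 value turning in sign with same FPKM total. Of all tested genes, 24.5% were called higher and 23.6% lower in this comparison, by limma's test against a 1.5-fold change with an adjusted p under 0.05. In c-MYC/FOXO1AAA tumors against c-MYC tumors, Idh1 and Suclg1 were lower and none was higher, where 15.9% of all genes were called higher and 12.7% lower. Against NL, the c-MYC/FOXO1AAA tumors had Idh2 and Idh3a higher and Idh1, Ogdh, Suclg1, Fh1 and Mdh1 lower, with 31.2% of all genes called higher and 26.6% lower. The last comparison shares its libraries with the other two. The median log2 fold change of the 9 was -0.36, -0.59 and -1.36 in the 3 comparisons, in that order. The first depends on scaling, since it is the value of Suclg1. That value turns to 0.57 with same FPKM total and to 0.32 with quantile normalization. The third does too, being the value of Ogdh. It moves to -0.27 with same FPKM total and to -0.93 with quantile normalization. The second is the value of Fh1, which moves to -0.42 and -0.31 in the same order. The groups did not overlap for 9, 8 and 7 of the 9, where 73.9%, 63.4% and 80.1% of all genes had no overlap.

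**Figure D1:**
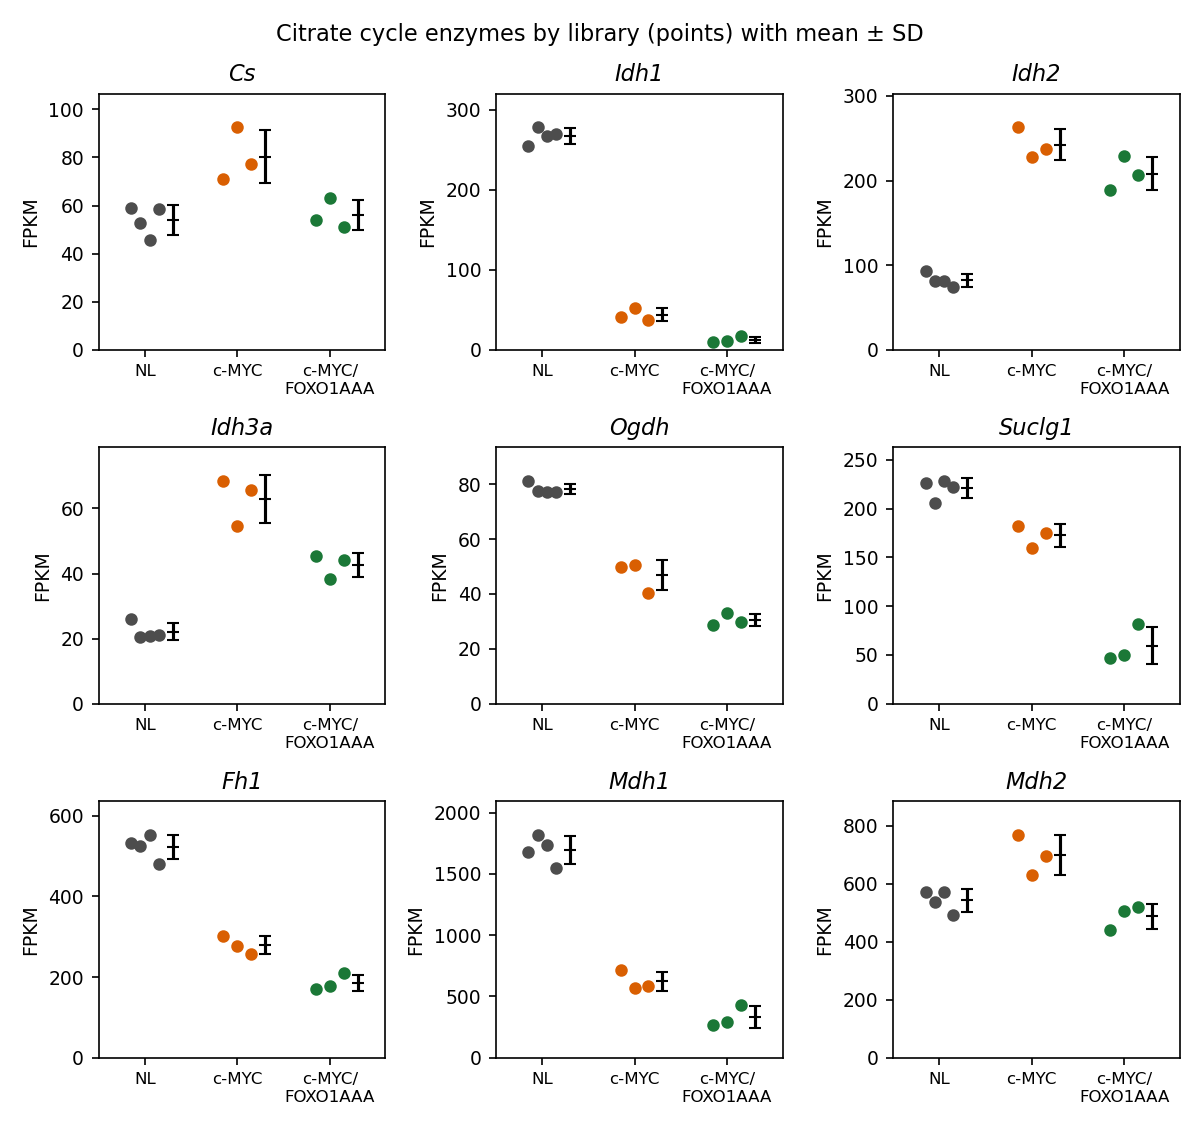
FPKM of each of the 9 enzymes (vertical axes from 0) in the libraries of each group, one point a library, with the mean and SD as a bar beside the points. Idh1 falls from 254.5 to 278.7 in NL to 9.403 to 16.62 in c-MYC/FOXO1AAA tumors, while Idh2 rises from 73.69 to 92.83 in NL to 189.3 or more in both kinds of tumor.

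Cs makes citrate synthase, which joins acetyl-CoA to oxaloacetate and opens the cycle. Cs was at 59.04, 52.54, 45.61 and 58.50 FPKM in NL, at 71.14, 92.70 and 77.10 in c-MYC tumors and at 53.99, 63.16 and 51.26 in c-MYC/FOXO1AAA tumors. Each c-MYC tumor lay above every other library. The log2 fold change was 0.57 (SE 0.13, adjusted p = 0.775) over NL, and the step from c-MYC to c-MYC/FOXO1AAA was -0.51 (SE 0.14, adjusted p = 1), so neither passed the 1.5-fold test. The c-MYC/FOXO1AAA tumors overlapped NL (0.06, adjusted p = 1), a difference whose sign turns with scaling and with single libraries.

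Idh1 makes the cytosolic, NADP-dependent isocitrate dehydrogenase, a source of NADPH. It was at 254.5, 278.7, 267.4 and 270.2 FPKM in NL, at 40.65, 52.78 and 37.65 in c-MYC tumors and at 9.403, 11.42 and 16.62 in c-MYC/FOXO1AAA tumors. The 3 groups did not overlap. Idh1 was 6.19-fold lower in c-MYC tumors than in NL (log2 fold change -2.63, SE 0.18, adjusted p = 1.82e-06). It was a further 3.56-fold lower with FOXO1AAA (-1.83, SE 0.19, adjusted p = 0.000213), and 22.1-fold lower in c-MYC/FOXO1AAA tumors than in NL (-4.46, SE 0.18, adjusted p = 1.02e-08). Idh1 was lower in all 3 comparisons under every alternative tried.

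Idh2 makes the mitochondrial, NADP-dependent isozyme. Its levels were 92.83, 81.22, 81.18 and 73.69 FPKM in NL, 263.4, 227.3 and 237.2 in c-MYC tumors and 189.3, 228.5 and 206.7 in c-MYC/FOXO1AAA tumors. Every tumor was above every NL library, and the tumor groups overlapped. Idh2 was 2.96-fold higher in c-MYC tumors than in NL (log2 fold change 1.56, SE 0.11, adjusted p = 9.55e-06) and 2.53-fold higher in c-MYC/FOXO1AAA tumors (1.34, SE 0.11, adjusted p = 4.7e-05). Between the tumors the difference was -0.22 (SE 0.11, 95% confidence interval -0.48 to 0.03, adjusted p = 1), with a sign that turns under quantile normalization.

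Idh3a makes the catalytic subunit of the NAD-dependent isocitrate dehydrogenase, the enzyme of the cycle proper. Idh3a was at 26.04, 20.44, 20.72 and 21.19 FPKM in NL, at 68.46, 54.67 and 65.72 in c-MYC tumors and at 45.37, 38.40 and 44.25 in c-MYC/FOXO1AAA tumors. The c-MYC/FOXO1AAA tumors lay between the other groups with no overlap. Idh3a rose by 1.51 in c-MYC tumors (log2, SE 0.12, adjusted p = 3.53e-05) and was 0.95 above NL in c-MYC/FOXO1AAA tumors (SE 0.12, adjusted p = 0.0114), a call that is lost with equal medians (0.82, adjusted p = 0.0567) and against a 2-fold threshold (adjusted p = 1). The step between the tumors, -0.56 (SE 0.13, adjusted p = 1), did not pass. Its partner subunits differed, since Idh3g was 232.1 ± 15.28 FPKM (SD, n = 4) in NL and 476.5 ± 68.32 (n = 3) in c-MYC tumors (1.03, SE 0.11, adjusted p = 0.00292), while Idh3b was 119.9 ± 6.351 and 118.3 ± 9.628. With same FPKM total both Idh3g and Idh3b were called higher in c-MYC tumors, Idh3b turning from -0.02 to 0.91.

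Ogdh makes the first component of the oxoglutarate dehydrogenase complex, which converts 2-oxoglutarate to succinyl-CoA. It was at 81.19, 77.60, 77.11 and 77.22 FPKM in NL, at 49.81, 50.38 and 40.42 in c-MYC tumors and at 28.85, 32.90 and 29.67 in c-MYC/FOXO1AAA tumors. The groups formed 3 separate steps. The difference of c-MYC tumors from NL was -0.75 (SE 0.10, adjusted p = 0.124) and did not pass, and its sign turns when libraries have the same FPKM total. Ogdh was lower in c-MYC/FOXO1AAA tumors than in NL by 1.36 (log2 fold change -1.36, SE 0.10, adjusted p = 1.97e-05), but not when libraries have the same FPKM total (-0.27, adjusted p = 1).

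The promoter windows of the genes were read for 3 motifs, on both strands, in the 300 bases from 250 before to 50 after each RefSeq start (GRCm38.p6). The motifs were CACGTG, the E-box bound by MYC, GTAAACA, bound by FOXO factors, and TCAAGGTCA, bound by ERR factors. Of all windows, 7.15%, 3.65% and 0.423% held them. A window was found for 8 of the 9 enzymes, not for Idh3a. Ogdh had 6 windows, Idh1 had 2 and the others had 1 each, so Ogdh was read over more sequence. Among these enzymes the E-box was in Ogdh alone, and the other motifs in none. It is shown with 12 bases on either side, the motif in capitals, for its 2 positions, which lie 110 bases before one start, and 141 and 162 bases before 2 others:
Ogdh first site, chr11:6292048-6292077 (+): gtcgcggcgtgtCACGTGgaccggtcgctc
Ogdh second site, chr11:6292405-6292434 (+): ggcaagaatcctCACGTGgataccatgtaa
Of the other listed genes with a window, 8 of 51 held the E-box (15.7%), and 8.09% of all genes did.

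Ogdhl, a paralog of Ogdh, moved the other way. It had 1 to 9 reads in NL, 49 to 100 in c-MYC tumors and 1192 to 2070 in c-MYC/FOXO1AAA tumors, or 0.1286 ± 0.08983, 0.9946 ± 0.4011 and 17.71 ± 4.371 FPKM. Adding FOXO1AAA to c-MYC raised it 18.4-fold (log2 fold change 4.20, SE 0.54, adjusted p = 0.000177). Reads shared by the paralogs could be split between them by the authors' counting, and Ogdhl is uncertain to that extent. The other components of the complex, Dlst and Dld, did not pass in any of the 3 comparisons. With same FPKM total, both were called higher in c-MYC tumors than in NL. Their values in c-MYC/FOXO1AAA tumors over NL, -0.59 and -0.64, then turned to 0.51 and 0.46.

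**Figure D2:**
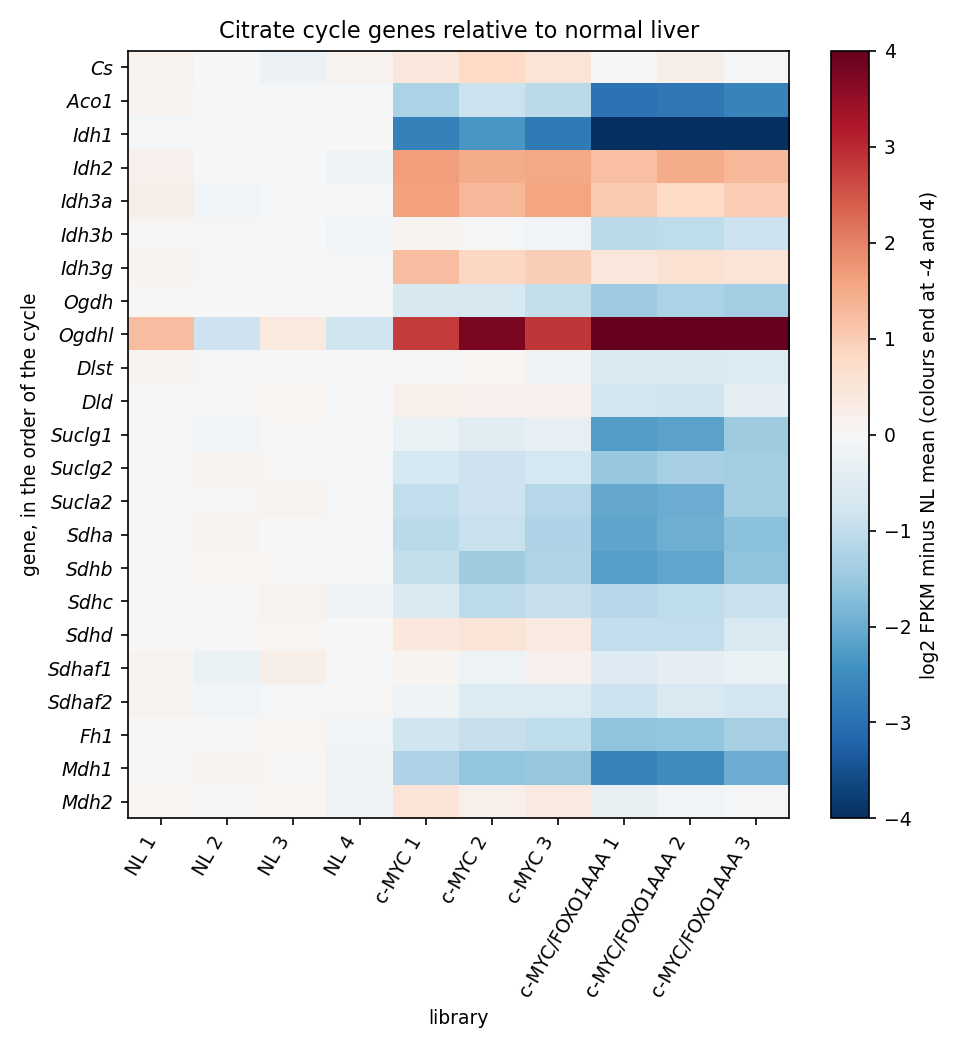
Log2 FPKM of 23 citrate cycle genes, in the order of the cycle, in each library minus the mean of NL (colors end at -4 and 4). Idh2, Idh3a and Idh3g are above NL in all 6 tumors, and Idh1, Aco1 and Mdh1 below it, most so in c-MYC/FOXO1AAA tumors.

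Suclg1 makes the alpha subunit of succinyl-CoA ligase, shared by the forms of the enzyme that yield ATP or GTP. It was at 226.5, 206.1, 228.4 and 222.4 FPKM in NL, at 182.6, 160.0 and 175.5 in c-MYC tumors and at 46.65, 50.35 and 81.95 in c-MYC/FOXO1AAA tumors. Suclg1 was 2.99-fold lower with FOXO1AAA than with c-MYC alone (log2 fold change -1.58, SE 0.18, adjusted p = 0.000677). Against NL it was lower in c-MYC/FOXO1AAA tumors (-1.93, SE 0.17, adjusted p = 1.72e-05), with adjusted p = 0.0773 when libraries have the same FPKM total. The change from NL to c-MYC was -0.36 (SE 0.17, adjusted p = 1), with a sign that turns with same FPKM total and with quantile normalization. The beta subunits were lower in c-MYC/FOXO1AAA tumors than in NL, Suclg2 by 1.41 (-1.41, adjusted p = 3.92e-06) and Sucla2 by 1.81 (-1.81, adjusted p = 1.46e-05). These calls also depend on scaling. Of the 14 other subunits of the cycle listed, 8 were called lower in this comparison, where 26.6% of all genes were. With same FPKM total only 2 were called lower, where 15% of all genes were. Sdhb, of succinate dehydrogenase, was among those 2. This rescaling shifts every gene alike, and Aco1 had the lowest log2 fold change of the 14 (-2.82). Neither Suclg2 nor Sucla2 therefore kept its call.

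Fh1 makes fumarase, which hydrates fumarate to malate. It was at 533.1, 525.7, 552.7 and 480.7 FPKM in NL, at 302.5, 277.6 and 256.8 in c-MYC tumors and at 171.0, 177.1 and 209.3 in c-MYC/FOXO1AAA tumors. The groups did not overlap. Fh1 was lower in c-MYC tumors than in NL (log2 fold change -0.91, SE 0.10, adjusted p = 0.0123). That call is lost without c-MYC tumor 3 (-0.85, adjusted p = 0.0575), with quantile normalization (-0.09) and against a 2-fold threshold. The value turns in sign, to 0.02, with same FPKM total. Fh1 was lower still in c-MYC/FOXO1AAA tumors against NL (-1.50, SE 0.10, adjusted p = 8.35e-06), although with same FPKM total the value was -0.40 (adjusted p = 1). With quantile normalization it was -0.40 too. The subunits of succinate dehydrogenase, which comes before fumarase, were lower in c-MYC/FOXO1AAA tumors than in NL, with Sdha at -1.90 (adjusted p = 1.34e-06), Sdhb at -1.96 (adjusted p = 6.34e-06), Sdhc at -1.03 (adjusted p = 0.00528) and Sdhd at -0.86 (adjusted p = 0.0235), but Sdhc and Sdhd turn in sign with same FPKM total (0.07 and 0.23), and Sdhd also with quantile normalization (0.06). With same FPKM total Sdha was -0.80 (adjusted p = 0.054) and Sdhb -0.86 (adjusted p = 0.0393).

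Mdh1 makes the cytosolic malate dehydrogenase of the malate-aspartate shuttle. It was at 1679, 1818, 1735 and 1551 FPKM in NL, at 715.0, 567.5 and 588.1 in c-MYC tumors and at 267.2, 294.9 and 431.5 in c-MYC/FOXO1AAA tumors. Mdh1 was lower in c-MYC tumors than in NL (log2 fold change -1.45, SE 0.16, adjusted p = 0.000447), but with same FPKM total the value was -0.52 (adjusted p = 0.816). In c-MYC/FOXO1AAA tumors it was 5.22-fold lower than in NL (-2.39, SE 0.16, adjusted p = 1.19e-06). Between the tumors it was -0.94 (SE 0.17, adjusted p = 0.102), and -1.14 (adjusted p = 0.00412) without c-MYC/FOXO1AAA tumor 3, the highest of its group. In the annotation, 52 exon bases of Mdh1 overlap Wdpcp on the other strand, and the strand setting of the counting was not stated.

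Mdh2 makes the mitochondrial malate dehydrogenase, which closes the cycle. It was at 572.6, 536.8, 572.8 and 490.6 FPKM in NL, at 768.3, 629.3 and 696.4 in c-MYC tumors and at 438.9, 504.6 and 519.6 in c-MYC/FOXO1AAA tumors. Its log2 fold change was 0.36 (SE 0.11, adjusted p = 1) in c-MYC tumors over NL, -0.52 (SE 0.12, adjusted p = 1) with FOXO1AAA and -0.16 (SE 0.11, adjusted p = 1) from NL to c-MYC/FOXO1AAA, none past the test. The last turns in sign with same FPKM total (0.94, adjusted p = 0.00145) and with quantile normalization (0.93, adjusted p = 0.0018).

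**Figure D3:**
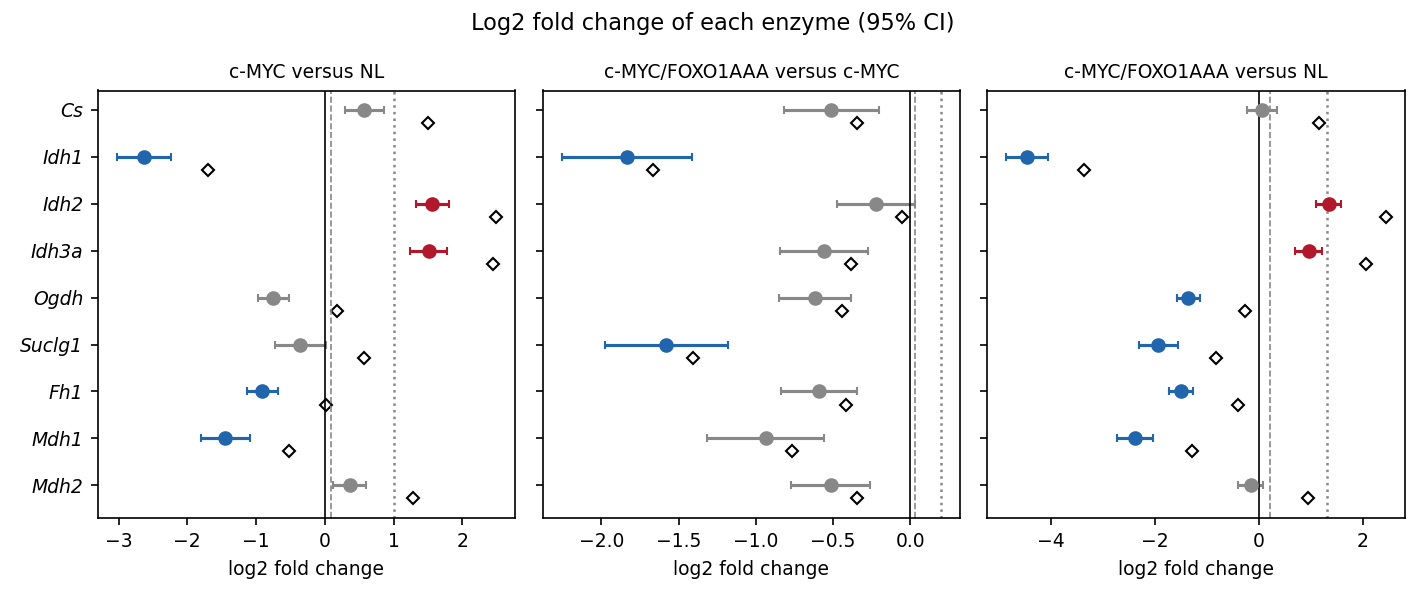
Log2 fold change of each enzyme in the 3 comparisons with its 95% confidence interval (circles, red called higher, blue called lower, gray not called), and the value with every library at the same FPKM total (open diamonds). The dashed and dotted lines are the medians of all genes under the 2 scalings, 0.08 and 1.01 in the c-MYC versus NL panel, where Ogdh, Suclg1 and Fh1 change sign between them.

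The ratio of an enzyme to its isozyme within a library is free of any single scaling factor for that library. The mean log2 ratio of Idh2 over Idh1 was -1.71 ± 0.18 in NL (SD, n = 4), 2.49 ± 0.33 in c-MYC tumors (n = 3) and 4.10 ± 0.40 in c-MYC/FOXO1AAA tumors (n = 3), so that Idh1 was 3.27-fold above Idh2 in NL and Idh2 was 5.60-fold and 17.1-fold above Idh1 in the tumors. The change from NL was 18.3-fold in c-MYC and 55.9-fold in c-MYC/FOXO1AAA tumors (two-sided exact permutation tests, each p = 0.02857, the smallest that 3 against 4 libraries allow, and 0.04286 after adjustment over 6 tests). Between the tumors the log2 ratio differed by 1.61 without overlap (exact permutation p = 0.1, the smallest that 3 against 3 allow, so this design cannot pass 0.05).

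Mdh2 over Mdh1 rose from a log2 ratio of -1.64 ± 0.09 in NL to 0.17 ± 0.07 in c-MYC and 0.59 ± 0.28 in c-MYC/FOXO1AAA tumors. The changes from NL were 3.50-fold and 4.69-fold (each exact permutation p = 0.02857, adjusted 0.04286), and the tumors differed by 0.42 (exact permutation p = 0.1). Of 6 pairs of isozymes compared in this way, 2 of which (Gpt and Pck) were added after their values were seen, the cytosolic member was called lower in c-MYC tumors than in NL in all 6 (Idh1, Mdh1, Got1, Me1, Gpt and Pck1). The mitochondrial member was higher in 3 (Idh2, Me2 and Pck2) and lower in 1, Gpt2 (-1.31, SE 0.14, adjusted p = 0.000708). In this comparison 24.5% of all genes were higher and 23.6% lower. With same FPKM total, 4 cytosolic members were called lower, and the mitochondrial members were 5 higher and 0 lower, and quantile normalization gave these counts too. All-gene shares, higher and lower, were then 50.4% and 13.5%, and 26.2% and 20.6%. With FOXO1AAA against c-MYC alone, 2 mitochondrial members were lower (Got2 and Gpt2) and 0 higher, where 12.7% and 15.9% of all genes were. Of the cytosolic members, 1 was lower (Idh1) and 2 were higher (Me1 and Pck1).

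The mean ratios of the Got, Me, Gpt and Pck pairs, given without a test, were smaller with FOXO1AAA than with c-MYC alone, whereas those of the Idh and Mdh pairs were larger. Got1 and Got2 are the aspartate aminotransferases, Me1 and Me2 the malic enzymes, Gpt and Gpt2 the alanine aminotransferases and Pck1 and Pck2 the phosphoenolpyruvate carboxykinases. Got2 over Got1 had a mean log2 ratio of 1.60 in NL, 2.81 in c-MYC and 1.75 in c-MYC/FOXO1AAA tumors, the last overlapping NL. Me2 over Me1 went from -5.89 to 5.21 and then 2.95, and Gpt2 over Gpt from -0.70 to 3.77 and then 0.92. Pck2 over Pck1 went from -10.27 to 2.87 and then -0.06.

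**Figure D4:**
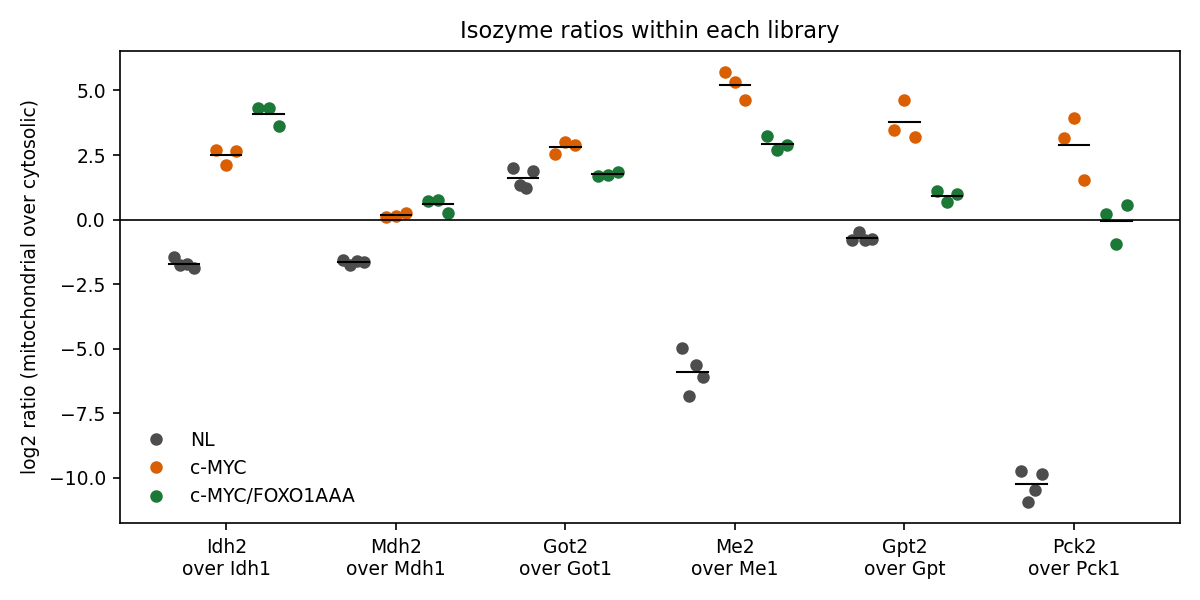
Log2 ratio of the mitochondrial over the cytosolic isozyme (vertical axis) for 6 enzyme pairs, one point a library, with the group mean as a bar. Idh2 over Idh1 is below 0 in all NL libraries and above 0 in all tumors, with group means of -1.71, 2.49 and 4.10, while the mean Got, Me, Gpt and Pck ratios drop from c-MYC to c-MYC/FOXO1AAA tumors.

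Comparing genes with each other needs a length, and the lengths behind the deposited values are short for 3 enzymes. The values fit a length of 542 bp for Fh1, 549 bp for Mdh1 and 648 bp for Mdh2, whereas the principal transcripts of the annotation have 2636, 2122 and 1456 bp. This raises their FPKM 4.86-fold, 3.87-fold and 2.25-fold against the other genes, but leaves each gene's fold changes as they are. With principal lengths, Mdh1 made up 29.0% ± 1.3 of the summed FPKM of the 9 in NL (SD, n = 4), Idh1 17.6% ± 0.96, Mdh2 16.0% ± 0.72 and Suclg1 14.6% ± 0.84. In c-MYC tumors the largest shares were Mdh2 at 26.3% ± 1.2 and Idh2 at 20.6% ± 0.29 (n = 3), and Idh1 was 3.70% ± 0.84. In c-MYC/FOXO1AAA tumors Mdh2 was 28.9% ± 0.58, Idh2 27.8% ± 2.4 and Idh1 1.63% ± 0.34 (n = 3). Idh2 and Mdh2 did not differ beyond their spread there.

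**Figure D5:**
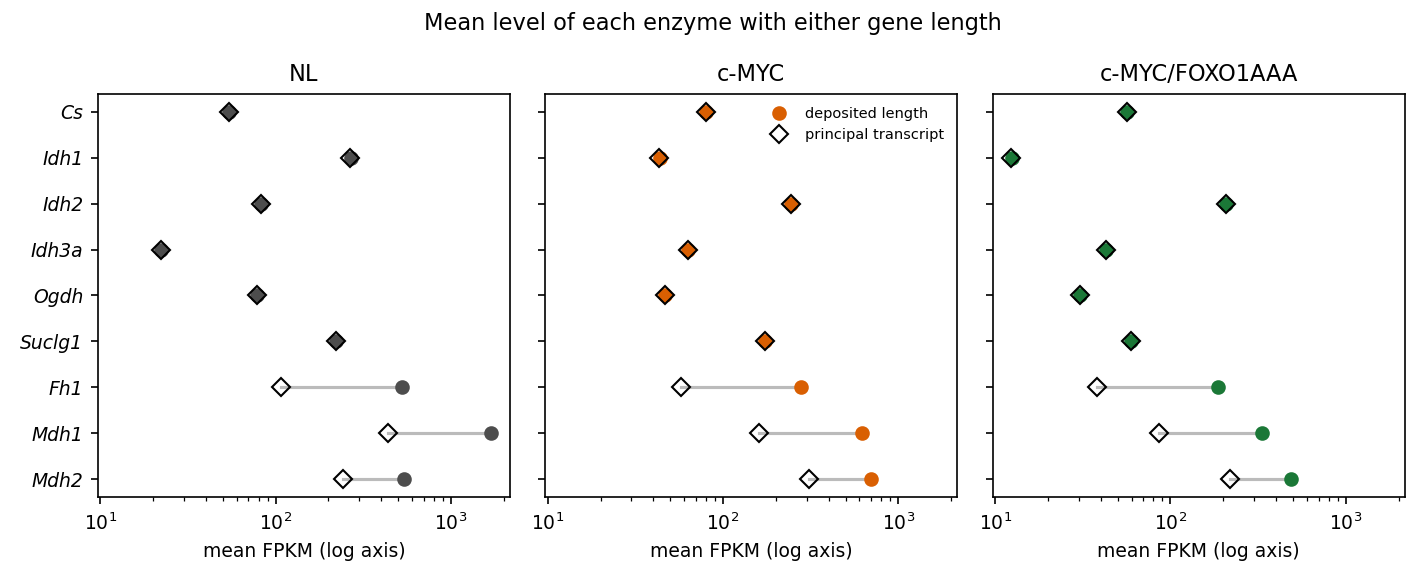
Mean FPKM of each enzyme on a log axis, with the length used in the deposited values (filled circles) and with the principal transcript length (open diamonds). Fh1, Mdh1 and Mdh2 move down by 4.86-fold, 3.87-fold and 2.25-fold, and the other 6 enzymes stay in place.

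Other genes of the cycle and its feeder routes were listed for comparison, 59 in all, of which 58 were tested. In c-MYC tumors against NL, 10 were higher and 23 lower, where 24.5% and 23.6% of all genes were. With FOXO1AAA against c-MYC alone the counts were 6 and 20 (15.9% and 12.7% of all genes). With FOXO1AAA against NL they were 9 and 33 (31.2% and 26.6%). With same FPKM total the split was 24 higher and 9 lower, 7 and 14, and 16 and 20 in the same order. All-gene shares were then 50.4% and 13.5%, 18.5% and 10.6%, and 58.0% and 15%. With quantile normalization, the c-MYC to NL split was 14 and 12 (26.2% and 20.6% of all genes).

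Among genes that bring pyruvate into the cycle, Pcx, the carboxylase that makes oxaloacetate from pyruvate, was at 219.0, 216.2, 203.5 and 203.2 FPKM in NL, 170.6, 162.1 and 209.0 in c-MYC and 6.398, 10.81 and 18.17 in c-MYC/FOXO1AAA tumors, 16.6-fold lower with FOXO1AAA (log2 -4.06, SE 0.29, adjusted p = 3.86e-06). Pdk4, an inhibitor of pyruvate dehydrogenase and a known FOXO1 target, was at 19.79, 22.67 and 24.50 FPKM in c-MYC/FOXO1AAA tumors, 0.8865 to 1.587 in NL, and 2, 0 and 7 reads in c-MYC tumors. Mpc2, a subunit of the mitochondrial pyruvate carrier, was 4.60-fold lower with FOXO1AAA (-2.20, SE 0.23, adjusted p = 0.00014).

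Among genes for glutamate and aspartate entry, 5 of 6 were lower in c-MYC tumors than in NL and 0 higher, and with FOXO1AAA all 6 were lower than in NL. The shares of all genes lower were 23.6% and 26.6%. With same FPKM total or quantile normalization, 2 were lower and 1, Got2, was higher in c-MYC tumors than in NL. Gls2, the liver-type glutaminase, was 4.27-fold lower in c-MYC tumors than in NL (-2.09, SE 0.15, adjusted p = 4.98e-06). Gpt, the cytosolic alanine aminotransferase, was at 346.8 ± 26.02 FPKM in the 4 NL libraries (mean ± SD, as in what follows), against 6.618 ± 2.404 in the 3 c-MYC and 7.193 ± 1.568 in the 3 c-MYC/FOXO1AAA tumors. Its mitochondrial isozyme Gpt2 was 6.42-fold lower with FOXO1AAA than with c-MYC alone (-2.68, SE 0.15, adjusted p = 1.09e-06).

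Of genes that carry citrate and malate out of the mitochondrion or use them, 10 were tested. In c-MYC tumors against NL, 2 were higher and 6 lower, where 24.5% and 23.6% of all genes were. With same FPKM total 3 were higher and 3 lower (50.4% and 13.5% of all genes). With quantile normalization 2 were higher and 3 lower (26.2% and 20.6% of all genes). Pck1, the cytosolic phosphoenolpyruvate carboxykinase of gluconeogenesis, was at 1423 ± 173.9 FPKM in NL, 0.983 ± 0.7697 in c-MYC and 8.014 ± 3.22 in c-MYC/FOXO1AAA tumors. The mitochondrial form Pck2 went from 1.179 ± 0.2998 to 5.827 ± 0.7364 and 7.457 ± 1.862. Me1, which makes cytosolic NADPH from malate, fell from 79.71 ± 24.35 to 0.5717 ± 0.2066 in c-MYC tumors and was 4.94-fold higher than that with FOXO1AAA (adjusted p = 0.00102). Me2 rose from 1.358 ± 0.4609 to 20.33 ± 2.042 and was 21.11 ± 4.933 with FOXO1AAA. The carriers Slc25a13, for aspartate and glutamate, and Slc25a10, for dicarboxylates, were lower with FOXO1AAA than with c-MYC alone (-2.44, adjusted p = 1.07e-05, and -1.66, adjusted p = 1.32e-05).

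Adhfe1 and D2hgdh belong to the enzymes that handle 2-hydroxyglutarate, a by-product of isocitrate and malate dehydrogenases. Adhfe1 was at 65.22 ± 2.962 FPKM in NL, 15.51 ± 1.553 in c-MYC and 4.34 ± 0.5119 in c-MYC/FOXO1AAA tumors, and D2hgdh at 8.384 ± 1.2, 3.66 ± 0.1944 and 1.747 ± 0.2557. All 3 genes of this list were lower with FOXO1AAA than with c-MYC alone, where 12.7% of all genes were. With same FPKM total 1 of the 3 was called lower, and 10.6% of all genes. Among genes of mitochondrial mass and control, Sirt3, the main mitochondrial deacetylase, fell from 71.43 ± 3.097 in NL to 22.32 ± 3.4 in c-MYC and 6.209 ± 0.969 in c-MYC/FOXO1AAA tumors. Tomm20, an import receptor of the outer membrane, rose from 14.55 ± 1.632 to 46.02 ± 3.425 and 48.67 ± 0.9999. The coactivators Ppargc1a and Pprc1 differed in direction, Ppargc1a being at 2.419 ± 0.311, 0.09812 ± 0.09482 and 0.2988 ± 0.07394 FPKM and Pprc1 at 4.563 ± 2.11, 25.48 ± 1.148 and 20.36 ± 2.629. Ppargc1a rested on 2, 23 and 4 reads in the c-MYC libraries.

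The spans of the 9 genes in GRCm38 (GENCODE M21 annotation) are chr10:128337734-128362479 for Cs, chr1:65158616-65186500 for Idh1, chr7:80094846-80115392 for Idh2, chr9:54586334-54604661 for Idh3a, chr11:6291633-6356642 for Ogdh, chr6:73248382-73276911 for Suclg1, chr1:175600374-175625635 for Fh1, chr11:21556787-21572367 for Mdh1 and chr5:135778480-135790398 for Mdh2. Counts were per gene, so exons and introns are not told apart.

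Over the 10 libraries, the genes whose pattern was most like that of an enzyme were described by Pearson's r, without a test, since the group differences set it. Idh1 was most like C2 (r = 0.999) and Echs1 (0.998), and Mdh1 like Sdhb (0.998) and Gstp3 (0.998). Idh2 was most like Ankrd39 (0.995) and Impdh2 (0.994), Idh3a like Mgme1 (0.992), and Cs like Ppfia1 (0.973). Between the enzymes, Idh1 went with Fh1 (r = 0.992), Mdh1 (0.99) and Ogdh (0.985), and against Idh2 (-0.859).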

How the data were processed

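RNA-Seq of 10 mouse liver libraries was analysed from a table of gene values. The deposited values are log2 FPKM, made by the authors from read counts per Ensembl gene with edgeR, with a prior count added. The labels' processing notes name GRCm38 and FastQC 0.11.7, while the aligner is not given in the sources used here. Samples were grouped by title. No column was left out (0 unused), but 372 entries without symbol or values were dropped. Whole reads were recovered from the values; 15785 of 16697 genes (94.54%) gave one length. Log2 FPKM were tested with limma 3.58.1 (R 4.3.3, treat at 1.5-fold, trend and robust, all 10 libraries, 14017 genes, Benjamini-Hochberg adjustment). The count test was not used, since the unit is log2. The isozyme ratios were compared by exact permutation. Named genes were all members, their isozymes and partners, and up to 2 of the largest changes per list, comparison and direction, of which examples are given. Listed genes outside the members that are not reported here (2) were left out of the lists and counts, but not of the fit. The members and lists were chosen with earlier results of these data known. The alternatives were scaling, pseudocounts (0.1 and 1), filters, thresholds, a replicate block and leaving out each library. Replicate libraries differed beyond sampling noise. The labels do not say that they are separate animals, so p-values measure the spread between these samples. The script was tested on simulated data.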

Additional observations from a re-analysis of the deposited data

Results flagged for a closer look

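In the groups of 4 libraries, the highest NL value stood apart from the others for Idh3a (26.04 FPKM) and for Ogdh (81.19 FPKM), by Dixon's test. Both are NL 1. Chance alone gives about 1 such group in 20. The other NL libraries were at 20.44 to 21.19 for Idh3a and at 77.11 to 77.60 for Ogdh.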

How the results depend on the processing

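Of 594 values of the 9 enzymes under the alternatives, 558 kept their direction and side of the threshold. Members called higher in c-MYC tumors over NL numbered 4 with same FPKM total and 4 without a fold threshold, and members called lower 1 with same FPKM total and 1 with quantile normalization. In c-MYC/FOXO1AAA against c-MYC tumors, 8 were lower without a fold threshold. Against NL, 4 were higher and 2 lower with same FPKM total, and 1 was higher with equal medians or with a 2-fold threshold. The share of all genes called higher was 50.4% in c-MYC over NL and 58.0% in c-MYC/FOXO1AAA over NL with same FPKM total, and 39.1% in c-MYC over NL without a fold threshold, where 26.4% were lower in c-MYC/FOXO1AAA over c-MYC; with same FPKM total 13.5% and 15% were lower than in NL, with quantile normalization 20.6% were lower in c-MYC than in NL, and the share higher in c-MYC/FOXO1AAA over NL was 28.6% with equal medians and 22.6% with a 2-fold threshold. In c-MYC over NL, values turned in sign for Ogdh (0.18), Suclg1 (0.57) and Fh1 (0.019) with same FPKM total and for Suclg1 (0.32) with quantile normalization, and Idh2 turned in c-MYC/FOXO1AAA over c-MYC (0.078) with quantile normalization. In c-MYC/FOXO1AAA over NL, Mdh2 turned with same FPKM total (0.94) and quantile normalization (0.93), and Cs with equal medians (-0.076). Leaving out 1 library gave Cs values from -0.028 to 0.123 there, negative without c-MYC/FOXO1AAA 2 or NL 3 (-0.018). The cause was not tested. With the principal length in place of the length used, an alternative chosen after seeing the data, the Mdh2 over Mdh1 log2 ratio was -0.86, 0.95 and 1.37 in the 3 groups. The replicate numbers do not pair the libraries (correlations of same-numbered libraries at -0.04 to 0.03); with a replicate block, 2 members were higher and 3 lower in c-MYC over NL.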
